A study of Mus musculus with 6 samples.

Results

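The genes described here are 36 genes of cholesterol and fatty acid synthesis, matched by symbol in the deposited table of 56980 mouse genes, and all 36 were found there. They comprise 18 sterol enzymes, 13 enzymes of fatty acid synthesis, elongation and desaturation, and 5 genes that regulate these pathways or carry sterol between membranes. Their expression was measured by RNA-Seq in BM MSCs, the plastic-adherent stromal cells of bone marrow (BM), which can form osteoblasts and adipocytes. All recipients were female mice that underwent ovariectomy (OVX) at 8 weeks of age, were given antibiotics to deplete their own gut microbiota and then received fecal microbiota transplantation (FMT) by gavage for 8 weeks. In the TranspCtrl group (3 samples) the donors were sedentary OVX mice, and in the TranspExer group (3 samples) they were OVX mice trained on a treadmill. The cells that grew from flushed femur and tibia marrow were washed repeatedly over 7 days of culture, no sort is described, and the mouse strain is not given in the sources used here. The labels do not say whether a sample is 1 mouse or a pool, or that samples came from separate cultures, so the p-values measure only the spread between these samples.

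Cells build cholesterol from acetyl-CoA through mevalonate, farnesyl diphosphate, squalene and lanosterol, and they build fatty acids from the same acetyl-CoA through malonyl-CoA, followed by elongation and by desaturation. Most of these enzymes are targets of the SREBP transcription factors, which the escort protein SCAP carries out of the endoplasmic reticulum for activation and which INSIG proteins hold back when sterols are plentiful. The product of *Srebf2* acts mainly on the sterol branch and that of *Srebf1* mainly on the fatty acid branch, while liver X receptors, which sense oxysterols, promote sterol export and also induce *Srebf1* and *Scd1*.

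Total expected counts ranged from 17647682 to 21319228 per sample, and 3 counts corresponded to 0.139 to 0.174 CPM (counts scaled to the size of the library with edgeR's TMM factors), a floor that covers counting error only. TranspCtrl replicate 1 stood apart: the mean chi-square per gene between its counts and those of the other TranspCtrl samples was 54.3 and 59.5, against 3.81 between replicates 2 and 3, 4.46 to 7.90 among the TranspExer samples and 63.1 to 163 between groups. Results are therefore also given without it where it matters. All 14 stromal markers passed the filter on low counts, and 3 of them were higher and 8 lower in TranspExer by edgeR's quasi-likelihood test (adjusted p under 0.05), with summed levels of 15197 to 23354 CPM in TranspCtrl and 14484 to 15783 CPM in TranspExer. Other cell types were also marked. Macrophage markers (1 of 12 higher, 3 lower) summed to 9732 to 14834 CPM in TranspCtrl and 7915 to 8572 CPM in TranspExer. Neutrophil markers (4 of 10 higher, 1 lower) summed to 3235 to 4323 CPM and 5693 to 5937 CPM. B and plasma cell markers (8 of 10 lower) summed to 3992 to 6437 CPM and 963 to 1039 CPM. Without TranspCtrl replicate 1, 4 macrophage markers were higher and 3 lower, and 7 neutrophil markers were higher and 0 lower. Among all genes 16.6% were higher and 15.5% lower, and without that replicate 22.1% and 19.6%. Endothelial markers (10 of 10 higher) summed to 210 to 256 CPM in TranspCtrl and 688 to 740.3 CPM in TranspExer. Osteoblast markers summed to 2817 to 3521 CPM and 2660 to 2913 CPM. Of these 8 markers 6 were tested, all 6 had log2 fold changes below 0, and 4 were lower by the test. Without TranspCtrl replicate 1, 7 were tested, 5 were lower and 1 was higher. *Bglap* had 3 counts or fewer in every sample. Of 10 adipocyte markers 5 were tested, all 5 had log2 fold changes above 0, and 2 were higher by the test. The sum was 76.4 to 129 CPM and 145 to 159.6 CPM, and *Cidec*, *Cfd*, *Lep*, *Retn* and *Pck1* had 3 counts or fewer in every sample. Proliferation genes (5 of 10 higher, 1 lower) summed to 1087 to 1160.2 CPM and 1252 to 1263 CPM. In such bulk samples, fewer cells of a type and less RNA per cell cannot be told apart, and the part of these markers in the results below was not tested.

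All 36 genes passed edgeR's filter on low counts, which left 15190 genes, and 13 of the 36 passed an adjusted p-value of 0.05, 11 lower and 2 higher in TranspExer. Among all genes tested 32.2% passed by the same rule, 15.5% lower and 16.6% higher. The 11 that fell were 8 sterol enzymes and 3 fatty acid enzymes, and the 2 that rose were *Dhcr7*, the last enzyme of one route to cholesterol, and *Scap*. With the libraries scaled by size only, 40.5% of all calls were higher, against 51.7% with TMM, and 10 sterol enzymes were lower in place of 8. Only *Scd1* also passed an absolute fold change of 2, the other threshold for differentially expressed genes (DEGs), which 5.28% of all genes passed downward and 3.5% upward. For 15 of the 36 genes every TranspExer sample was below every TranspCtrl sample and for 2 every one was above, beside 25.1% and 27.2% of all genes.

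**Figure D1:**
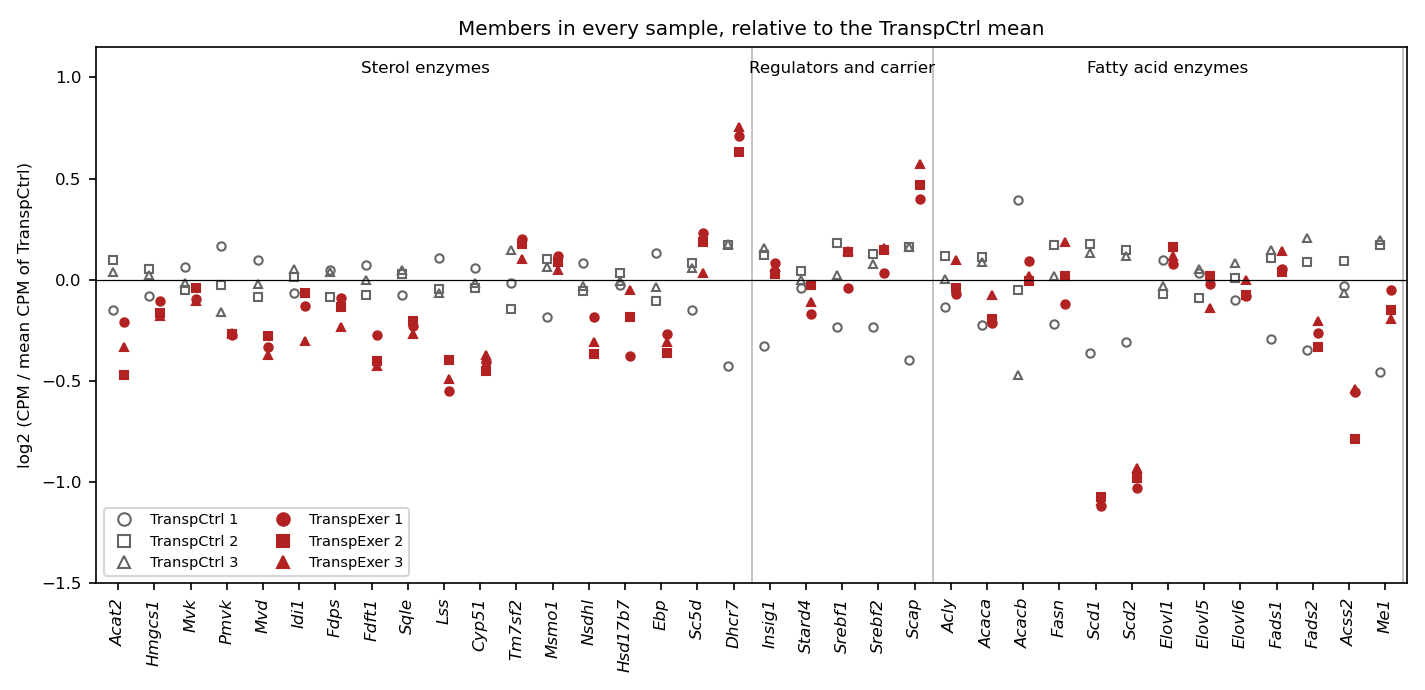
Log2 ratio of each sample's CPM to the mean CPM of the TranspCtrl group (vertical axis) for the 36 genes in pathway order (horizontal axis). Open grey symbols are the 3 TranspCtrl samples and filled red symbols the 3 TranspExer samples. *Scd1* and *Scd2* lie lowest in all 3 TranspExer samples, *Dhcr7* and *Scap* lie highest, and TranspCtrl replicate 1 lies below the other controls for many genes of the right-hand panels.

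Of the 18 enzymes of the sterol branch, 8 fell by small amounts (*Acat2*, *Mvd*, *Fdft1*, *Sqle*, *Lss*, *Cyp51*, *Nsdhl* and *Ebp*), *Dhcr7* rose and 9 did not pass the test. Among all genes tested, 15.5% were lower and 16.6% higher by the same rule. The median log2 fold change of the 18 was -0.21, with a range from -0.48 to 0.70 and 14 values below 0, beside a median of -0.02 over all genes tested. Their summed level was 1239, 1273 and 1288 CPM in TranspCtrl and 1176, 1149 and 1125 CPM in TranspExer, so the groups did not overlap. Several of these calls depended on single samples. The count of sterol enzymes called lower was 10 without TranspCtrl replicate 1 (beside 19.6% of all genes), 5 without TranspCtrl replicate 2 (13.5%), and 4 without TranspCtrl replicate 3 (12% of all genes) or TranspExer replicate 1 (9.06%). It was 2 (*Lss* and *Cyp51*) without TranspExer replicate 2 (8.48% of all genes) or 3 (8.72%).

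Upstream sequences are shown for 5 sterol genes: *Hmgcs1*, the 1 gene with the sterol regulatory element among the 29 that could be searched, *Mvd*, *Lss* and *Ebp*, which fell, and *Dhcr7*, which rose. They come from RefSeq (GRCm38.p6), read 5′ to 3′ on the gene's strand, cover up to 250 bases before the RefSeq start, and end earlier where the GENCODE gene begins further upstream. Capitals mark the sterol regulatory element TCACNCCAC and the NF-Y box CCAAT, which reads ATTGG where it lies on the opposite strand.
Hmgcs1, chr13:119690101-119690350, plus strand: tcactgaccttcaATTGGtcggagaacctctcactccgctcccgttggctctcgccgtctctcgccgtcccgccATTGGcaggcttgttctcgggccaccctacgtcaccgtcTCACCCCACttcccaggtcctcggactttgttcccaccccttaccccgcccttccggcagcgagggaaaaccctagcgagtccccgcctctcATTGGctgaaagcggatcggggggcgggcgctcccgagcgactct
Mvd, chr8:122443423-122443672, minus strand: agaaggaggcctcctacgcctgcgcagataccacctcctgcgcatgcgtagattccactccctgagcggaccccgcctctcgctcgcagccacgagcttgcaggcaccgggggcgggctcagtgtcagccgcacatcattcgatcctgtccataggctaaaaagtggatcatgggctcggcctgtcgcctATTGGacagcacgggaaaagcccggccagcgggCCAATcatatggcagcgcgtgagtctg
Lss, chr10:76531355-76531587, plus strand: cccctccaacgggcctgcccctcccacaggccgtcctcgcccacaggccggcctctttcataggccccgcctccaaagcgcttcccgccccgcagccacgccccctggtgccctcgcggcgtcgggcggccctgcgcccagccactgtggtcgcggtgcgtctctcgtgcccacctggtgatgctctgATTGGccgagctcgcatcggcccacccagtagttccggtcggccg
Ebp, chrX:8193513-8193762, minus strand: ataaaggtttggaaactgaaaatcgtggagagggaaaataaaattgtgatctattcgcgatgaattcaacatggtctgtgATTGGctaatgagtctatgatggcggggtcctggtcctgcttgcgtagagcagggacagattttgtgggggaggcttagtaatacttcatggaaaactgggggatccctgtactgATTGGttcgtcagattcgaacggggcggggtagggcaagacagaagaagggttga
Dhcr7, chr7:143822917-143823144, plus strand: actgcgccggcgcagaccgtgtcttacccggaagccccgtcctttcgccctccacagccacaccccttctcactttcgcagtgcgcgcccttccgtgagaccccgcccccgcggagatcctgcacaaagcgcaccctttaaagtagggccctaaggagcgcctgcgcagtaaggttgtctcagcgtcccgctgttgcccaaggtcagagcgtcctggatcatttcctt

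RefSeq windows, from 250 bases before to 50 after a start, were given for 29 of the 36 genes. Searched on both strands, TCACNCCAC was found in 1 of the 29 genes (*Hmgcs1*) and in 1.24% of all 32851 windows. CCAAT was found in 24 of the 29 genes and 25 of their 37 windows, beside 37.4% of all windows, and the Sp1 box GGGCGG in 23 genes and 27 windows, beside 35.7% of all windows. *Dhcr7* has 3 windows, and the one printed holds no CCAAT, whereas another of its windows holds 2. A match is a run of letters and not a measured binding site, and no match says only that these letters are not in the window.

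The first part of the sterol branch runs from acetoacetyl-CoA to farnesyl diphosphate, which also feeds the synthesis of dolichol, ubiquinone and prenyl groups. All 7 of its enzymes measured here had log2 fold changes below 0, with a median of -0.16, and 2 fell. *Acat2*, the cytosolic thiolase that makes acetoacetyl-CoA, was at 35.2, 41.7 and 40.1 CPM in TranspCtrl and 33.7, 28.1 and 30.9 CPM in TranspExer. *Mvd*, which decarboxylates mevalonate diphosphate to isopentenyl diphosphate, was at 38.9, 34.2 and 35.8 CPM in TranspCtrl and 28.9, 29.9 and 28.1 CPM in TranspExer. Neither gene's groups overlapped. *Acat2* fell by 0.33 (SE 0.10, adjusted p = 0.0391) and *Mvd* by 0.33 (SE 0.08, adjusted p = 0.0202) on the log2 scale by edgeR's quasi-likelihood test. *Mvd* lost the call when any 1 TranspExer replicate was left out (highest adjusted p = 0.0789), and *Acat2* lost it without TranspCtrl replicate 2 or 3 or TranspExer replicate 2 or 3 (highest adjusted p = 0.127).

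*Hmgcs1*, the cytosolic synthase that joins acetyl-CoA to acetoacetyl-CoA, was at 204, 224 and 219.6 CPM in TranspCtrl and 201, 192 and 191 CPM in TranspExer. The groups did not overlap, yet the log2 fold change of -0.15 (95% confidence interval -0.33 to 0.02) did not pass the test (adjusted p = 0.163). It passed without TranspCtrl replicate 1 (log2 fold change -0.19, adjusted p = 0.00955) and when the libraries were scaled by upper-quartile factors or by size only. The kinases *Mvk* (-0.08) and *Pmvk* (-0.27), the isomerase *Idi1* (-0.16) and farnesyl diphosphate synthase *Fdps* (-0.15) did not pass either, and the adjusted p-values of these 4 genes ranged from 0.0919 to 0.476.

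All 3 enzymes that lead from farnesyl diphosphate to lanosterol fell, with a median log2 fold change of -0.37. *Fdft1*, squalene synthase, the step that commits carbon to sterols, was at 64.4, 58.2 and 61.3 CPM in TranspCtrl and 50.7, 46.4 and 45.6 CPM in TranspExer. *Sqle*, which oxidizes squalene to its epoxide, was at 89.0, 95.5 and 96.9 CPM in TranspCtrl and 80.1, 81.4 and 77.8 CPM in TranspExer. *Lss*, which folds the epoxide into lanosterol, the first sterol, was at 51.0, 45.9 and 45.2 CPM in TranspCtrl and 32.3, 36 and 33.7 CPM in TranspExer. For all 3 genes every TranspExer sample was below every TranspCtrl sample.

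*Lss* had the lowest log2 fold change of the sterol branch, -0.48 (SE 0.08, adjusted p = 0.00456, edgeR's quasi-likelihood test), its mean level fell by 28.2%, and it was called under all 14 alternative fits. *Fdft1* fell by 0.37 on the log2 scale (SE 0.08, adjusted p = 0.0109) and did not pass without TranspExer replicate 2 or 3 (highest adjusted p = 0.0569). *Sqle* fell by 0.23 (SE 0.07, adjusted p = 0.04) and passed in 7 of the 14 alternatives, losing the call when any 1 sample other than TranspCtrl replicate 1 was left out (highest adjusted p = 0.122). In the GENCODE annotation *Fdft1* shares 774 exonic bases with *Ctsb* on the opposite strand, whose mean level was 4732 CPM in TranspCtrl and 7842 CPM in TranspExer. Whether the counting used strand is not stated.

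After lanosterol the enzymes did not share 1 direction. Of 8 enzymes, 3 fell, *Dhcr7* rose and 4 did not pass the test, and the median log2 fold change was -0.06. *Cyp51*, which removes the lanosterol methyl group at the start of this stretch, was at 150.4, 140.5 and 143 CPM in TranspCtrl and 109, 106 and 112 CPM in TranspExer. *Nsdhl*, a dehydrogenase of the later demethylation, was at 40.1, 36.3 and 37.1 CPM in TranspCtrl and 33.3, 29.3 and 30.6 CPM in TranspExer. *Ebp*, the sterol isomerase, was at 51.3, 43.5 and 45.8 CPM in TranspCtrl and 38.9, 36.4 and 37.9 CPM in TranspExer. Again no TranspExer sample of these genes reached a TranspCtrl sample.

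*Cyp51* fell by 0.41 on the log2 scale (SE 0.07, adjusted p = 0.0044, edgeR's quasi-likelihood test) and was called under all 14 alternatives. It shares 166 exonic bases with *Akap9* on the opposite strand (58.4 CPM in TranspCtrl and 40.0 CPM in TranspExer). *Nsdhl* fell by 0.28 (SE 0.09, adjusted p = 0.0374) and *Ebp* by 0.31 (SE 0.09, adjusted p = 0.0268). *Nsdhl* lost the call when any 1 sample other than TranspCtrl replicate 1 was left out (highest adjusted p = 0.138), and *Ebp* when TranspCtrl replicate 3 or any 1 TranspExer replicate was (highest adjusted p = 0.11).

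*Dhcr7*, which reduces 7-dehydrocholesterol to cholesterol and so also drains the precursor of vitamin D, stood against the rest of the branch. It was at 39.2, 59.4 and 59.7 CPM in TranspCtrl and 86.3, 81.8 and 89.1 CPM in TranspExer. TranspCtrl replicate 1 was the lowest sample, and all TranspExer samples were above all TranspCtrl samples. The rise was 0.70 on the log2 scale (SE 0.15, 95% confidence interval 0.34 to 1.06, adjusted p = 0.0118, edgeR's quasi-likelihood test), a mean level 1.62 times that of TranspCtrl. Without TranspCtrl replicate 1 it was 0.52 (adjusted p = 1.43e-05), and without TranspExer replicate 3 the adjusted p-value was 0.0525. *Sc5d* (0.15), which makes the substrate of *Dhcr7*, the reductase *Tm7sf2* (0.16, with 532 exonic bases shared with *Vps51* on the same strand), the methyl oxidase *Msmo1* (0.08) and *Hsd17b7* (-0.20), a ketoreductase, did not pass (adjusted p-values of 0.162 to 0.51).

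**Figure D2:**
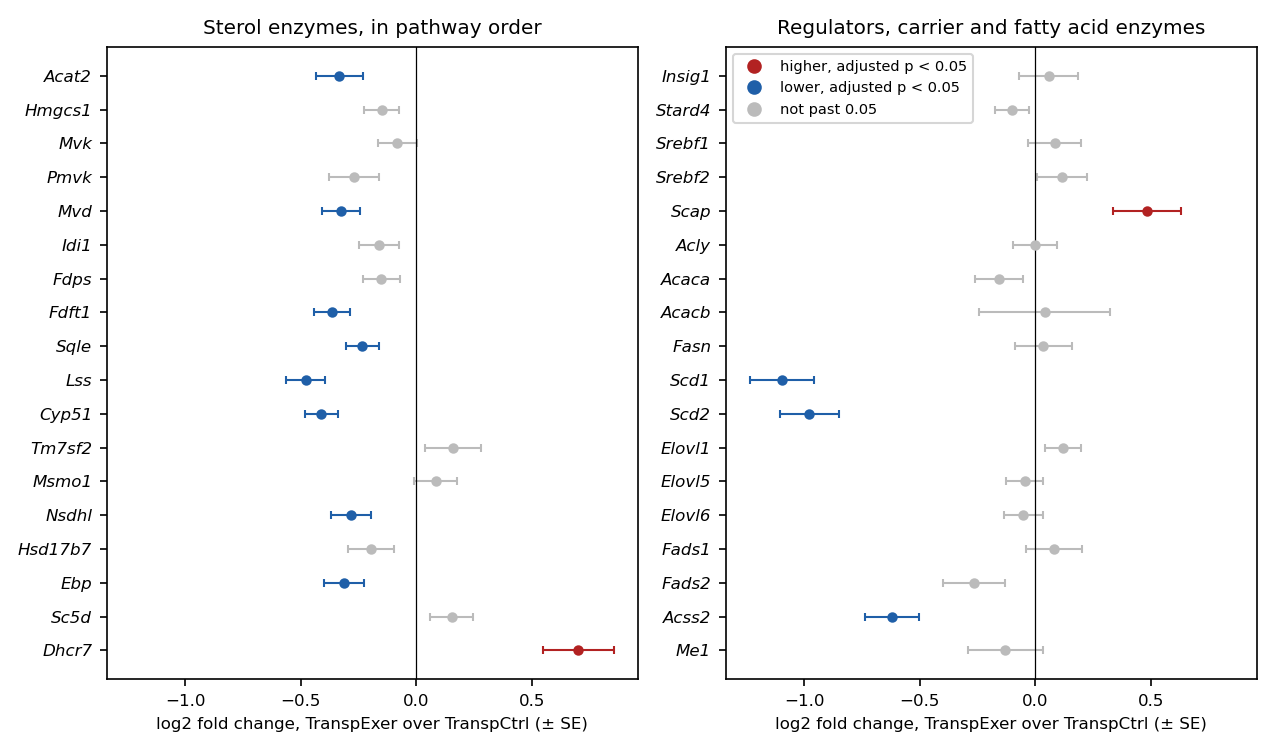
Log2 fold change of TranspExer over TranspCtrl with its SE (horizontal axis) for the sterol enzymes in pathway order (left) and for the regulators, the sterol carrier and the fatty acid enzymes (right). Blue points are genes lower and red points genes higher at an adjusted p under 0.05, and grey points did not pass. The sterol enzymes from *Acat2* to *Cyp51* all lie below 0, *Dhcr7* lies at 0.70, and *Scd1*, *Scd2* and *Acss2* lie farthest to the left.

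The ratio of *Dhcr7* to other enzymes of the branch was taken within each sample. Against *Sc5d*, the step before it, the ratio per kilobase of gene length was 0.691, 0.893 and 0.912 in TranspCtrl and 1.17, 1.14 and 1.38 in TranspExer. *Cyp51* and *Lss* are the 2 sterol enzymes with the lowest fold changes. Per kilobase of gene length, the ratio of *Dhcr7* to *Cyp51* was 0.620, 1.01 and 0.995 in TranspCtrl and 1.89, 1.84 and 1.90 in TranspExer. The ratio of *Dhcr7* to *Lss* was 2.17, 3.66 and 3.73 in TranspCtrl and 7.54, 6.42 and 7.48 in TranspExer. All 3 ratios were higher in TranspExer without overlap, the one to *Sc5d* by the smallest factor, and they combine genes already described, so no test was run on them.

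The regulators themselves differed little between groups, apart from *Scap*. Of the 5 genes, *Scap* rose and 4 did not pass the test, beside 16.6% of all genes higher and 15.5% lower. The median log2 fold change of the 5 was 0.08. *Scap* was at 37.8, 55.8 and 55.7 CPM in TranspCtrl and 65.5, 68.9 and 74.1 CPM in TranspExer. All TranspExer samples were higher than all TranspCtrl samples, of which replicate 1 was again the lowest. The rise was 0.48 on the log2 scale (SE 0.15, 95% confidence interval 0.14 to 0.82, adjusted p = 0.04, edgeR's quasi-likelihood test). It was 0.32 without TranspCtrl replicate 1 (adjusted p = 0.00159) and lost the call when any 1 TranspExer replicate was left out (highest adjusted p = 0.135). *Scap* shares 985 exonic bases with *5830462I19Rik* on the opposite strand, which did not pass the filter on low counts.

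*Srebf2*, the main transcription factor of the sterol branch, was at 181, 232 and 224 CPM in TranspCtrl and 217, 235 and 237 CPM in TranspExer. *Srebf1* was at 68.7, 91.7 and 82.3 CPM in TranspCtrl and 78.7, 89.1 and 89.3 CPM in TranspExer. The groups overlapped for both genes, and the log2 fold changes were 0.11 (95% confidence interval -0.13 to 0.36, adjusted p = 0.443) and 0.08 (-0.18 to 0.35, adjusted p = 0.605). *Insig1*, which retains the SCAP complex and is itself a target of SREBP, was at 114, 156 and 159.5 CPM in TranspCtrl and 151, 146 and 149.5 CPM in TranspExer. *Stard4*, a soluble carrier that moves cholesterol between membranes and also a target of SREBP, was at 67.2, 71.3 and 69.2 CPM in TranspCtrl and 61.5, 67.9 and 64.2 CPM in TranspExer. Both overlapped between groups, with log2 fold changes of 0.06 (-0.24 to 0.35, adjusted p = 0.752) and -0.10 (-0.27 to 0.07, adjusted p = 0.317). The small values of *Insig1* and *Srebf1* turned below 0 without TranspCtrl replicate 1, and that of *Insig1* also under 2 other scalings.

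In the fatty acid branch the genes with the largest falls were the stearoyl-CoA desaturases. Of the 13 enzymes, 3 fell (*Scd1*, *Scd2* and *Acss2*), none rose and 10 did not pass the test, beside 15.5% of all genes lower and 16.6% higher. The median log2 fold change of the 13 was -0.05, with a range from -1.10 to 0.12. By edgeR 0 were higher at an unadjusted p under 0.05 too, and by DESeq2 0 were higher. Without TranspCtrl replicate 1 the counts were 6 lower and 1 higher, with *Acaca*, *Fads2* and *Me1* added below and *Elovl1* above, beside 19.6% of all genes lower and 22.1% higher in that fit. The log2 fold change was then -0.26 for *Acaca* in place of -0.16, -0.41 for *Fads2* in place of -0.27 and -0.31 for *Me1* in place of -0.13. *Scd1* and *Scd2* encode stearoyl-CoA desaturases, which place the first double bond in stearate and palmitate and so supply oleate and palmitoleate to membranes, triglycerides and cholesteryl esters. In marrow stromal cells they are also known as genes that rise with adipocyte differentiation.

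*Scd1* was at 138, 200.1 and 194 CPM in TranspCtrl and 81.5, 84.1 and 83.0 CPM in TranspExer. *Scd2* was at 623, 854 and 835 CPM in TranspCtrl and 378, 391 and 404 CPM in TranspExer. For both genes the TranspExer samples lay close together and below every TranspCtrl sample, and TranspCtrl replicate 1 was the control nearest to them. *Scd1* fell by 1.10 on the log2 scale (SE 0.14, 95% confidence interval -1.42 to -0.78, adjusted p = 0.00105, edgeR's quasi-likelihood test), and its mean level fell by 53.2%. *Scd2* fell by 0.98 (SE 0.13, 95% confidence interval -1.27 to -0.69, adjusted p = 0.00119), and its mean level fell by 49.3%. Both were called under all 14 alternatives, with log2 fold changes of -1.25 for *Scd1* and -1.11 for *Scd2* without TranspCtrl replicate 1. The 2 genes lie on either side of the fold threshold, *Scd1* at -1.10 inside and *Scd2* at -0.98 outside, and with the fold of 2 tested in the model neither passed.

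The 2 desaturase genes are neighbours on chromosome 19 (GRCm38), *Scd2* at chr19:44293674-44306864 on the plus strand and *Scd1* at chr19:44394455-44407879 on the minus strand, with the family member *Scd4* between them. Of the 50-base stretches of their transcripts, 4.56% for *Scd1* and 3.97% for *Scd2* also occur in other genes, among them 145 stretches that the 2 share. *Scd3* had at most 3 counts and *Scd4* at most 18 counts in any sample, and both were under the filter. The ratio of *Scd2* to *Scd1* per kilobase was 4.01, 3.78 and 3.81 in TranspCtrl and 4.10, 4.12 and 4.31 in TranspExer. The level of *Scd1* and *Scd2* summed was 761, 1054 and 1029 CPM in TranspCtrl and 459, 475 and 487 CPM in TranspExer, whereas the other 11 enzymes summed to 896, 1074 and 1054 CPM and to 963, 983 and 1041 CPM. The first sum differed between groups without overlap, and the second overlapped.

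*Acss2*, the cytosolic synthetase that turns acetate into acetyl-CoA, was the other enzyme to fall. It was at 12.8, 14.0 and 12.6 CPM in TranspCtrl and 8.95, 7.61 and 9.04 CPM in TranspExer, with no overlap. The fall was 0.62 on the log2 scale (SE 0.12, 95% confidence interval -0.89 to -0.35, adjusted p = 0.00605, edgeR's quasi-likelihood test) and it was called under all 14 alternatives. On the opposite strand *Acss2* shares 395 exonic bases with *Gss*, whose mean level of 19.2 CPM in TranspCtrl and 17.8 CPM in TranspExer was above its own, 197 with *Ggt7* (5.96 and 5.62 CPM) and 335 with *Acss2os*, which did not pass the filter on low counts.

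The core of fatty acid synthesis did not pass the test in either direction. *Acly*, which releases acetyl-CoA from citrate, was at 234, 279 and 257 CPM in TranspCtrl and 244, 249.6 and 275 CPM in TranspExer. *Acaca*, the acetyl-CoA carboxylase that makes malonyl-CoA in the cytosol, was at 67.6, 85.1 and 83.9 CPM in TranspCtrl and 68.0, 69.0 and 74.8 CPM in TranspExer. *Fasn*, fatty acid synthase, was at 139.8, 184 and 165 CPM in TranspCtrl and 149.7, 165 and 185 CPM in TranspExer. The groups overlapped for all 3 genes. The log2 fold changes were -0.0026 for *Acly* (95% confidence interval -0.22 to 0.21, adjusted p = 0.986), -0.16 for *Acaca* (-0.40 to 0.08, adjusted p = 0.268) and 0.03 for *Fasn* (-0.25 to 0.32, adjusted p = 0.848). A fall of *Fasn* as large as that of *Scd1* lies outside its interval. Of the *Acaca* sequence, 30.4% of 50-base stretches also occur in other genes, mostly the copy *Gm5182*, so its counts are less certain.

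Elongases and the desaturases of polyunsaturated fatty acids did not pass the test either. *Elovl6*, which extends palmitate to stearate, the substrate of *Scd1*, was at 26.9, 29.0 and 30.5 CPM in TranspCtrl and 27.3, 27.3 and 28.8 CPM in TranspExer. *Fads2*, the desaturase that opens the path to long polyunsaturated fatty acids, was at 49.3, 66.4 and 72.2 CPM in TranspCtrl and 52.2, 49.7 and 54.3 CPM in TranspExer. Both overlapped between groups, with log2 fold changes of -0.05 (adjusted p = 0.653) and -0.27 (95% confidence interval -0.58 to 0.05, adjusted p = 0.167). The elongases *Elovl1* (0.12) and *Elovl5* (-0.05), the desaturase *Fads1* (0.08), malic enzyme *Me1* (-0.13), a source of NADPH, and the mitochondrial carboxylase *Acacb* (0.04, at 0.883 to 1.61 CPM in all samples) did not pass, with adjusted p-values of 0.264 to 0.926.

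**Figure D3:**
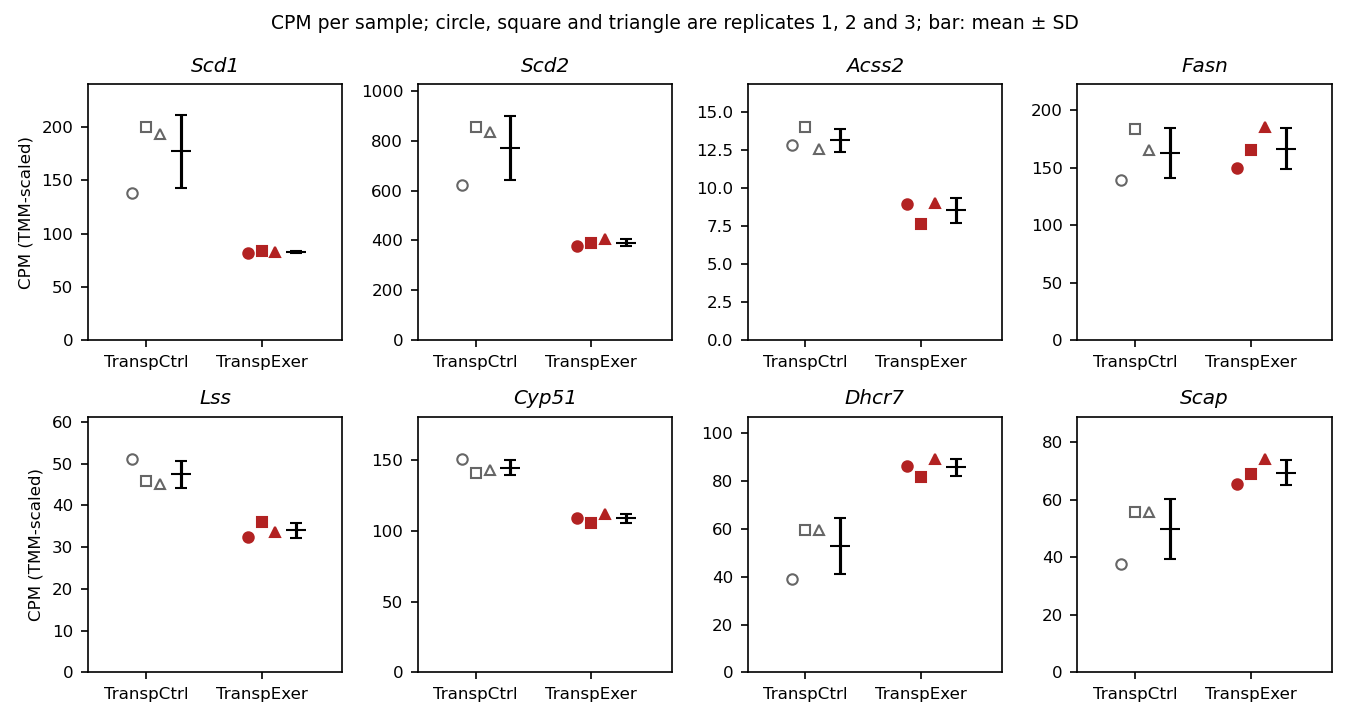
TMM-scaled CPM (vertical axes, from 0) of 8 genes in each TranspCtrl sample (open grey) and TranspExer sample (red), with bars for the mean ± SD of 3 samples. *Scd1*, *Scd2*, *Acss2*, *Lss* and *Cyp51* are lower and *Dhcr7* and *Scap* higher in TranspExer without overlap, while the samples of *Fasn* overlap.

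Set against fatty acid synthase, the desaturases differed between groups in every sample. Per kilobase, the ratio of *Scd1* to *Fasn* was 2.05, 2.26 and 2.44 in TranspCtrl and 1.13, 1.06 and 0.931 in TranspExer. That of *Scd2* to *Fasn* was 8.22, 8.57 and 9.31 in TranspCtrl and 4.65, 4.36 and 4.02 in TranspExer. Such a ratio does not depend on how a library is scaled, and TranspCtrl replicate 1 was the lowest control in both.

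Levels per kilobase of the gene length deposited with the counts put *Scd2* first of the 36 genes in TranspCtrl, at 141 ± 23.5 CPM per kilobase (SD, n = 3). In TranspExer *Scd2* was at 71.6 ± 2.44 CPM per kilobase, below *Fdps* at 89.0 ± 4.54 and *Elovl1* at 76.6 ± 2.24. Among sterol enzymes *Fdps* was highest in both groups (98.9 ± 4.95 in TranspCtrl), followed by *Hmgcs1* at 62.4 ± 2.95 and 56.2 ± 1.58 CPM per kilobase. *Dhcr7* was at 32 ± 7.12 CPM per kilobase in TranspCtrl, where its own SD, widened by the low replicate 1, covers the means of *Sqle* (34.0 ± 1.52) and *Cyp51* (36.8 ± 1.32), and at 51.9 ± 2.22 in TranspExer, above *Sqle* (28.9 ± 0.667) and *Cyp51* (27.6 ± 0.754). *Acacb* was the lowest in both groups, at 0.139 ± 0.0416 and 0.143 ± 0.00518 CPM per kilobase. Of 50-base stretches, 26.2% for *Fdps* and 39.1% for *Acat2* also occur in other genes, so their levels are less certain.

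Beside synthesis, cells gain free cholesterol from lysosomes and from stored esters. A list of 25 other sterol genes covers further steps of synthesis, uptake, lysosomal release, transport and esterification. Of its 24 genes tested 6 were higher and 2 lower, beside 16.6% and 15.5% of all genes, with a median log2 fold change of 0.06. Without TranspCtrl replicate 1, 8 were higher and 4 lower, beside 22.1% and 19.6% of all genes. With library size only, 5 were higher and 4 lower. With all samples and TMM, the 3 that rose with the smallest adjusted p-values act in release and storage. *Lipa*, the acid lipase that frees cholesterol from esters in lysosomes, was at 371, 392 and 378 CPM in TranspCtrl and 907, 935 and 966 CPM in TranspExer. *Soat1*, which esterifies cholesterol for storage, was at 168, 278 and 282 CPM in TranspCtrl and 479, 475 and 477 CPM in TranspExer. *Nceh1*, a hydrolase of stored cholesteryl esters, was at 84.0, 107 and 97.6 CPM in TranspCtrl and 184, 190.3 and 192 CPM in TranspExer. None of the 3 overlapped between groups.

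By edgeR's quasi-likelihood test *Lipa* rose by 1.30 on the log2 scale (SE 0.08, adjusted p = 4.96e-05), *Soat1* by 0.97 (SE 0.18, adjusted p = 0.0062) and *Nceh1* by 0.97 (SE 0.10, adjusted p = 0.000416). *Npc1*, which exports cholesterol from lysosomes, rose by 0.51 (SE 0.10, adjusted p = 0.00846), and *Nus1*, a subunit of the dolichol synthase that draws on farnesyl diphosphate, by 0.54 (SE 0.12, adjusted p = 0.0138). *Nus1* did not pass without TranspExer replicate 1 or 3 (highest adjusted p = 0.0527), and the other 4 genes were called under all 14 alternatives. Per kilobase, the ratio of *Soat1* to *Sqle* was 1.78, 2.74 and 2.75 in TranspCtrl and 5.64, 5.50 and 5.78 in TranspExer. This ratio of RNA levels combines genes already described, and no test was run on it. *Lipa* and *Soat1* are also abundant in macrophages, whose markers are given above.

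The list of liver X receptor and sterol export genes had 6 of 14 higher and 2 lower, beside 16.6% and 15.5% of all genes, with a median log2 fold change of 0.24. *Nr1h3*, which encodes a liver X receptor, was at 18.1, 16.0 and 15.9 CPM in TranspCtrl and 46.1, 42.6 and 42.5 CPM in TranspExer. *Abcg1*, an exporter of cholesterol and a target of this receptor, was at 52.8, 91.4 and 81.1 CPM in TranspCtrl and 161, 159 and 184 CPM in TranspExer. *Ch25h*, which makes an oxysterol that restrains SREBP, was at 5.91, 5.44 and 5.95 CPM in TranspCtrl and 11.8, 13.5 and 10.6 CPM in TranspExer. All 3 were DEGs with no overlap between groups. *Nr1h3* rose by 1.39 (SE 0.09, adjusted p = 6.19e-05), *Abcg1* by 1.16 (SE 0.18, adjusted p = 0.00291) and *Ch25h* by 1.05 on the log2 scale (SE 0.13, adjusted p = 0.00103, edgeR's quasi-likelihood test).

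*Rxra*, the partner receptor, rose by 0.57 (adjusted p = 0.00451) and the phosphodiesterase gene *Smpdl3a*, a target of the receptor, by 0.49 (adjusted p = 0.00327). Not all export genes rose, since the 2 that fell were *Abca1*, the exporter that loads apolipoproteins (log2 fold change -0.28, adjusted p = 0.0445), and *Arl4c* (-0.39, adjusted p = 0.0196), both of which are known targets of the receptor. These 2 were named after their values were seen. *Abca1* lost the call without TranspCtrl replicate 2 or 3 or TranspExer replicate 1 or 2 (highest adjusted p = 0.145) and with the replicate block, and *Arl4c* without TranspCtrl replicate 2 or 3 or TranspExer replicate 2 or 3 (highest adjusted p = 0.0739).

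Of 31 other genes of fatty acid metabolism, 25 were tested, 4 were higher and 2 lower, beside 16.6% and 15.5% of all genes, and the median log2 fold change was 0.13. *Acsl3*, an acyl-CoA synthetase that acts at nascent lipid droplets, was at 33.8, 30.8 and 28.3 CPM in TranspCtrl and 18.0, 16.8 and 16.6 CPM in TranspExer, while *Acsl5*, another member of the family, was at 122, 131 and 130.2 CPM and at 165, 165 and 168 CPM. The 2 synthetases thus differed in opposite directions without overlap. *Acsl3* fell by 0.85 on the log2 scale (SE 0.10, adjusted p = 0.00068) and *Acsl5* rose by 0.38 (SE 0.07, adjusted p = 0.00626, edgeR's quasi-likelihood test). *Hacd1*, a dehydratase of the elongation cycle, fell by 0.54 (adjusted p = 0.0128), *Acot7*, an acyl-CoA thioesterase, rose by 0.45 (adjusted p = 0.00341), and *Mlycd*, which degrades malonyl-CoA, rose by 0.45 (adjusted p = 0.0144). *Hacd1* lost the call without TranspExer replicate 2 or 3 (highest adjusted p = 0.0608) and *Mlycd* without TranspExer replicate 1 or 3 (highest adjusted p = 0.0611).

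**Figure D4:**
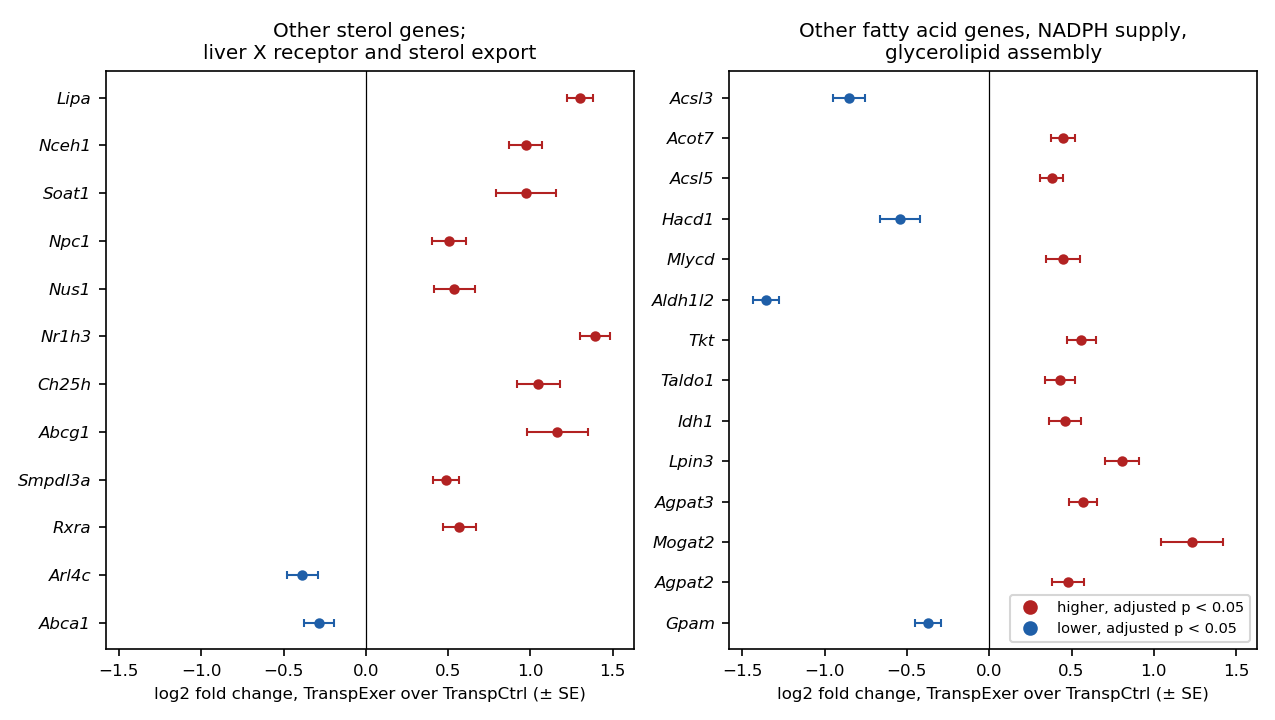
Log2 fold change of TranspExer over TranspCtrl with its SE (horizontal axis) for up to 5 called genes per list by smallest adjusted p, with *Abca1* and *Arl4c*, which were added after their values were seen. Red points are higher and blue points lower in TranspExer. On the left, *Abca1* and *Arl4c* lie below 0 and the other 10 genes above it, and on the right *Acsl3*, *Hacd1*, *Aldh1l2* and *Gpam* lie below 0.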

How the data were processed

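RNA-Seq data of BM MSCs comprised 3 TranspCtrl and 3 TranspExer samples, grouped by the labels. The authors deposited expected counts per gene (estimated, not normalized, 10.1% to 12.2% of values not whole) and a gene length of 56980 genes. Per the labels the library kit was stranded, whereas the methods name a TruSeq kit. The build in the submitters' processing notes is mm10. The aligner, the counting tool, the annotation and any use of strand are not given in the sources used here.

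Counts were rounded and tested with edgeR 4.0.16 in R 4.3.3 (filterByExpr, TMM, quasi-likelihood test, no covariate beside the group, Benjamini-Hochberg adjustment over 15190 genes). The SE is the log2 fold change divided by the root of F. For 1 gene alone, exact permutation of 3 against 3 samples gives no two-sided p below 0.1, and the model borrows variance across genes. Total counts were 17647682 to 21319228 per sample. Positions, overlaps and shared 50-base stretches came from GENCODE M21 (GRCm38), and upstream sequences from RefSeq. The genes and lists were chosen with earlier results of these data known, and no list was tested as a set.

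Values in every sample are given for DEGs, for up to 8 called genes of each branch by smallest adjusted p, and for 16 genes whatever their values. From each other list, up to 5 called genes are named by smallest adjusted p. Alternatives were DESeq2 1.42.0, RLE and upper-quartile factors, library size only, TMM without immunoglobulin genes, 2 other count filters, a replicate block, the fold of 2 tested in the model and each sample left out. Both tools were tested on simulated counts. Figures were drawn with matplotlib 3.10.9.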

Additional observations from a re-analysis of the deposited data

How the results depend on the processing

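The setting was changed 1 at a time. Over the 36 genes and 14 alternatives, 446 of 504 fold changes kept their direction and their side of the threshold, 31 lost the call, 9 gained one and 18 changed sign, none of the last past the test in either fit. For the 26 other pathway genes named, 347 of 364 kept both and 17 lost the call. *Lss*, *Cyp51*, *Scd1*, *Scd2* and *Acss2* were called under all 14. With upper-quartile factors the median log2 fold change of the sterol enzymes was -0.29 and with library size only -0.30, which moved the split of all calls from 2523 higher and 2361 lower to 2052 and 2901, and to 2013 and 2962. Genes of the set past both thresholds were 2 (*Scd1* and *Scd2*) with either scaling and with at least 1 CPM in 3 samples, and 0 with the fold of 2 tested in the model. With each sample left out in turn, the sterol enzymes called lower were 2 to 10 and higher 0 to 1, their median log2 fold change was -0.26 to -0.20, the fatty acid enzymes called lower were 3 to 6 and higher 0 to 1, the regulators called higher 0 to 1, and genes past both thresholds 0 to 2. The genes that changed sign were, over the samples left out, *Msmo1* (-0.00106 to 0.14), *Insig1* (-0.0841 to 0.14), *Srebf1* (-0.0229 to 0.18), *Acly* (-0.0684 to 0.0631), *Acacb* (-0.154 to 0.29), *Fasn* (-0.0652 to 0.13) and *Fads1* (-0.0493 to 0.16), and further *Acly* with DESeq2 (0.00348), *Fads1* with library size only (-0.00243), and, with upper-quartile factors and library size only, *Insig1* (-0.0165 and -0.0234), *Acacb* (-0.0444 and -0.0523) and *Fasn* (-0.0415 and -0.0483). The cause of these changes was not tested. With the replicate number as a block, 6 sterol enzymes were lower in place of 8, without *Acat2* and *Sqle*, 1 was higher, 3 fatty acid enzymes were lower and the medians were -0.22 and -0.05. The same-numbered samples deviated together by correlations of only 0.0247, -0.00167 and 0.0416, and not every sample correlated best with its own number. These values do not show that the numbers pair the samples, and with 3 samples per group they cannot settle it. All calls were 2484 higher and 2218 lower with the block. *Acacb*, with 19 to 33 counts per sample, is the gene whose precision depth limits most.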

Other observations

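Both syntheses consume NADPH. All 12 genes of its supply and of the linked pentose phosphate steps were tested. Of these, 3 were higher and 1 lower, beside 16.6% and 15.5% of all genes, with a median log2 fold change of 0.17. Without TranspCtrl replicate 1, 6 were higher and 2 lower, beside 22.1% and 19.6% of all genes. *Aldh1l2*, a mitochondrial folate enzyme that makes NADPH, was at 147, 163 and 149 CPM in TranspCtrl and 58.3, 60.7 and 59.9 CPM in TranspExer, a fall of 1.36 on the log2 scale (SE 0.08, adjusted p = 4.54e-05, edgeR's quasi-likelihood test). *Tkt* and *Taldo1*, of the branch of the pentose phosphate pathway that makes no NADPH itself, rose by 0.56 (adjusted p = 0.00279) and 0.43 (adjusted p = 0.0104), and *Idh1*, the cytosolic isocitrate dehydrogenase, rose by 0.46 (adjusted p = 0.0109). *Taldo1* did not pass without TranspExer replicate 1 or 2 (highest adjusted p = 0.0598).

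Fatty acids are joined to glycerol by acyltransferases and phosphatases. Of 13 genes of this glycerolipid list, 12 were tested, 6 were higher and 1 lower, beside 16.6% and 15.5% of all genes, with a median log2 fold change of 0.18. *Mogat2*, a monoacylglycerol acyltransferase, was at 4.35, 6.31 and 7.07 CPM in TranspCtrl and 14.0, 12.2 and 15.4 CPM in TranspExer, a rise of 1.23 (SE 0.19, adjusted p = 0.0024). *Lpin3*, a phosphatidate phosphatase, rose by 0.81 (adjusted p = 0.000998), and the acyltransferases *Agpat3* and *Agpat2* by 0.57 (adjusted p = 0.00202) and 0.48 (adjusted p = 0.00849). *Gpam*, the mitochondrial enzyme of the first acylation, was at 27.7, 28.8 and 27.9 CPM in TranspCtrl and 21.4, 21.6 and 22.2 CPM in TranspExer, and fell by 0.37 (SE 0.08, adjusted p = 0.00978). All 5 were called under all 14 alternatives.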
